A study of Rattus norvegicus with 18 samples.

Results

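The proteasome genes of rat brain cortex were followed through the first hours of focal ischemia on 1-colour oligonucleotide arrays. Members were taken by name: every non-control probe whose gene symbol begins with Psma, Psmb, Psmc, Psmd, Psme, Psmf or Psmg, with 1 probe per gene, that of highest mean signal. This gave 42 genes on 51 probes, of 15505 named genes on 41012 probes. By role they were 7 alpha-ring and 7 constitutive beta-ring subunits of the 20S core, 3 inducible beta subunits, 6 ATPases and 10 other subunits of the 19S cap, 3 chaperones of 19S assembly, 4 activator genes, and 2 genes that carry the prefix but code for partners rather than subunits (Psmc3ip and Psme3ip1). The rule matched no probe for Psmd14 or Psmf1 and none for a Psmg gene.

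The proteasome is the protease complex that degrades proteins tagged with ubiquitin. Its 20S barrel holds the proteolytic sites inside the beta rings, and the 19S cap binds, unfolds and feeds the substrate. Interferons and related signals make cells replace the 3 catalytic beta subunits, Psmb5, Psmb6 and Psmb7, by Psmb8, Psmb9 and Psmb10, and raise the 11S activator made of Psme1 and Psme2; the resulting immunoproteasome is known for cutting peptides for display on MHC class I. When the proteasome is blocked or overloaded, the transcription factor Nfe2l1 is known to raise most subunit genes together through antioxidant response elements.

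The 18 arrays came from male Crl:CD(SD)BR rats of 250 to 280 g, in 6 groups of 3: sham-operated rats without treatment, rats with middle cerebral artery occlusion (MCAO) given saline, and rats with MCAO given erythropoietin (EPO), each at 2 h and at 6 h after MCAO. The labels give no age, EPO dose or hemisphere, and do not say that each array is a separate animal, so the p-values measure only the spread between these samples. The sham rats differ from the saline group in the surgery and in the injection. Every level below is the log2 signal of a probe minus the 75th percentile of its array, changes are differences of group means on that log2 scale with the standard error of the limma model, and "rose" or "fell" is used only at an adjusted p under 0.05 (Benjamini-Hochberg over 28625 probes).

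Probes called well above background made up 61.5 to 80.6% of each array, and no probe was saturated. The arrays lay on 5 slides scanned on 2 days, and 6 arrays had a spike-in slope above 0.9, 4 of them on the slide of the second day. Neuron markers were well above background on every array (6 of 6), as the labelled cortex requires. The 40 members tested were all well above background on all 18 arrays, so the filter on dim probes chose none of them. Psmb4 and Psmd2 had a spot that the scanner software marked as an outlier, leaving 17 values, and were not tested. The within-group SD had a median of 0.08 over the 40 members, from 0.05 for Psme2 to 0.24 for Psmd6, against 0.14 over all 12330 genes tested.

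At 6 h after MCAO with saline, 5 of the 40 members rose against sham and none fell, where 7.10% of all genes rose and 4.51% fell. The 5 were not core subunits: they were 2 of the 3 inducible beta subunits (Psmb9 and Psmb10), 1 of 4 activator genes (Psme1), and 2 of the 3 chaperones of 19S assembly (Psmd5 and Psmd9). Of 28 tested structural subunits of the constitutive 20S core and the 19S cap, none passed the test in either direction, and 4 (14.3%) were under an unadjusted p of 0.05, against 25.7% of all genes. At 2 h no member passed the test, where 1.43% of all genes rose and 0.219% fell, and 9 of 40 (22.5%) were under an unadjusted p of 0.05, against 12.8% of all genes. EPO against saline gave no called member at either time.

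**Figure D1:**
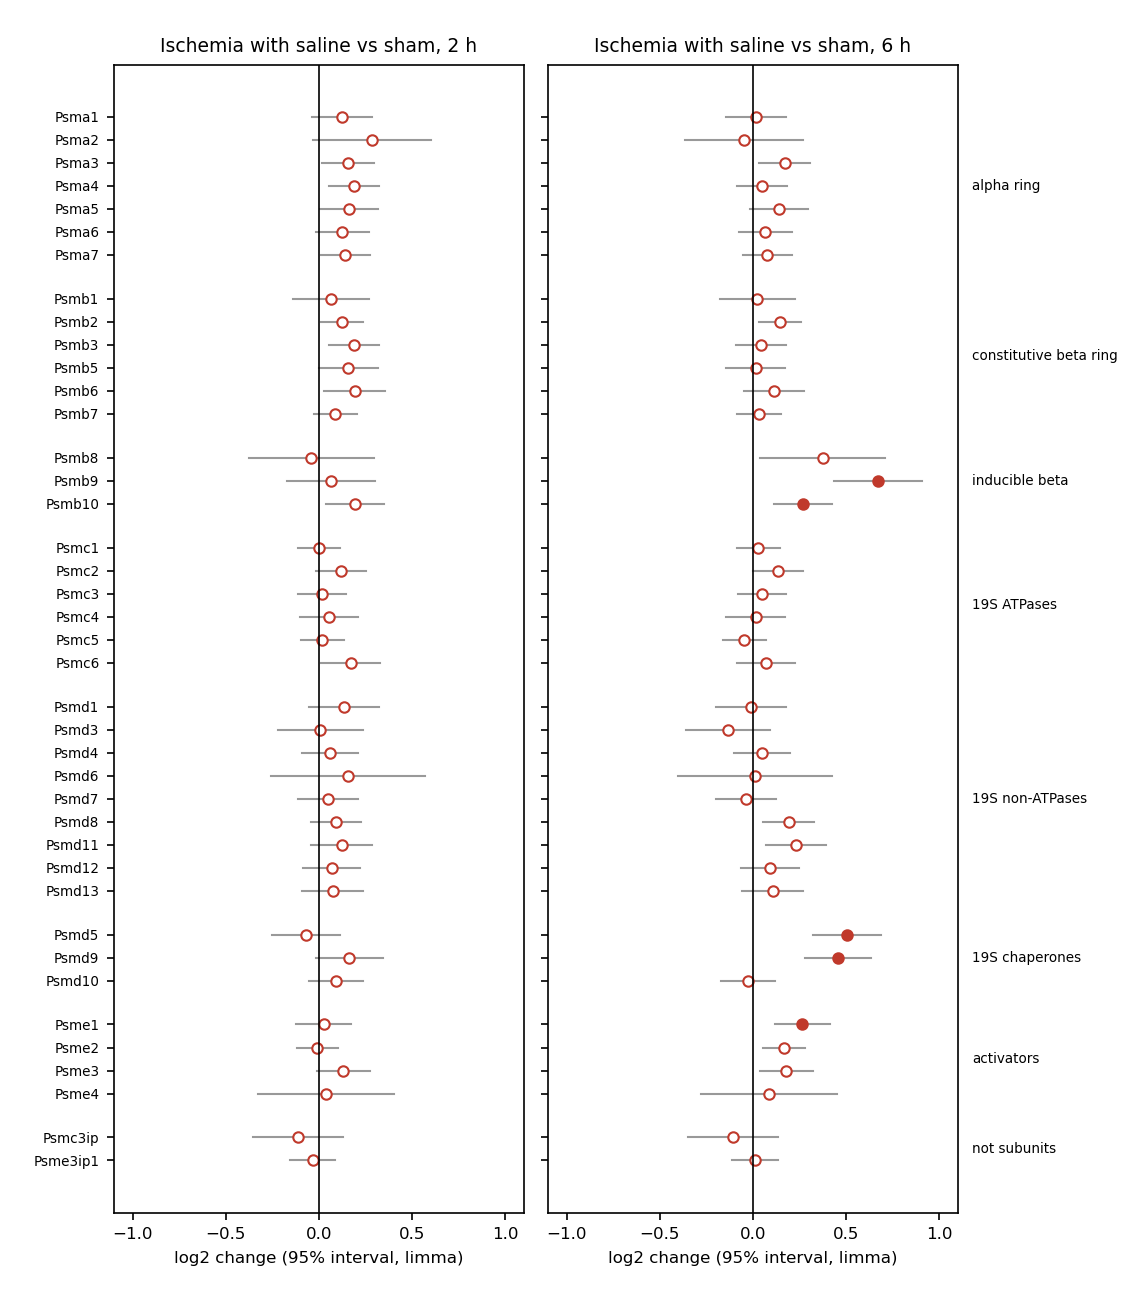
Log2 change of the 40 tested members in ischemia with saline against sham at 2 h (left) and 6 h (right), grouped by role, with 95% intervals from limma (3 arrays a group). Filled points passed the test at an adjusted p under 0.05: none at 2 h, and Psmb9, Psmb10, Psmd5, Psmd9 and Psme1 at 6 h.

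Psmb9 (probe A_44_P301963), the inducible subunit that takes the place of Psmb6, had the largest change of any member. Its log2 levels at 6 h were -0.87, -0.91 and -0.97 in sham, and -0.22, -0.16 and -0.36 in ischemia with saline. All 3 ischemic arrays were above all 3 sham arrays, with a wide gap. The change was 0.67 ± 0.11, a 1.59-fold rise (limma, adjusted p = 0.0018). With the slide as a fixed block it was 0.66, and within the slides that held both groups the difference was 0.75 on slide 3 and 0.52 on slide 5. At 2 h the sham levels were -0.58, -0.72 and -1.001 and the ischemic ones -0.55, -0.78 and -0.77, which overlapped, and the change was 0.06 ± 0.11 (limma, adjusted p = 0.80).

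Psmb10 (A_44_P152144), which replaces Psmb7, stood at 2.54, 2.64 and 2.59 in sham at 6 h and at 2.88, 2.90 and 2.79 in ischemia with saline. The groups were apart, and the change was smaller than that of Psmb9, 0.27 ± 0.07 or 1.20-fold (limma, adjusted p = 0.032). Its 2 h values were 2.42, 2.67 and 2.51 in sham and 2.64, 2.78 and 2.77 in ischemia, which overlapped, with a difference of 0.20 ± 0.07 that did not pass (limma, adjusted p = 0.28). The EPO arrays at 2 h, at 2.79, 2.72 and 2.68, were all above sham, with a difference of 0.19 ± 0.07 that did not pass (limma, adjusted p = 0.27). Psmb8 (A_44_P182020), which replaces Psmb5, read -1.01, -1.01 and -1.22 in sham at 6 h against -0.49, -0.66 and -0.95 in ischemia with saline. All 3 ischemic arrays were above the sham arrays here too, but the spread of this probe was among the widest of the members (within-group SD 0.20), and the change of 0.37 ± 0.16 did not pass (limma, adjusted p = 0.17). At 2 h Psmb8 differed by -0.04 ± 0.16.

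The 11S activator is a ring of the products of Psme1 and Psme2. Psme1 (A_43_P11888) was at 2.00, 2.00 and 1.91 in sham at 6 h and at 2.29, 2.24 and 2.18 in ischemia with saline, so that the groups did not overlap. It rose by 0.27 ± 0.07, or 1.20-fold (limma, adjusted p = 0.025), and with the slide as a fixed block the same change of 0.27 had an adjusted p of 0.075. Its partner Psme2 (A_44_P554698), the member with the smallest spread, was at 1.66, 1.78 and 1.73 in sham and 1.91, 1.85 and 1.92 in ischemia. These groups were apart as well, with a change of 0.17 ± 0.05 that did not pass (limma, adjusted p = 0.063). At 2 h the changes were 0.03 ± 0.07 for Psme1 and -0.01 ± 0.05 for Psme2.

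Of the other activators, Psme3, which forms a nuclear ring of its own, was at 3.27, 3.19 and 3.13 in sham at 6 h and 3.41, 3.34 and 3.38 in ischemia with saline, groups apart, a change of 0.18 ± 0.07 (limma, adjusted p = 0.11). Psme4, the single-chain activator PA200, changed by 0.09 ± 0.17 at 6 h and 0.04 ± 0.17 at 2 h, with one of the widest spreads among members. Its second probe (A_44_P219919) read -0.36 ± 0.19 at 2 h and -0.01 ± 0.19 at 6 h, neither past the test.

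**Figure D2:**
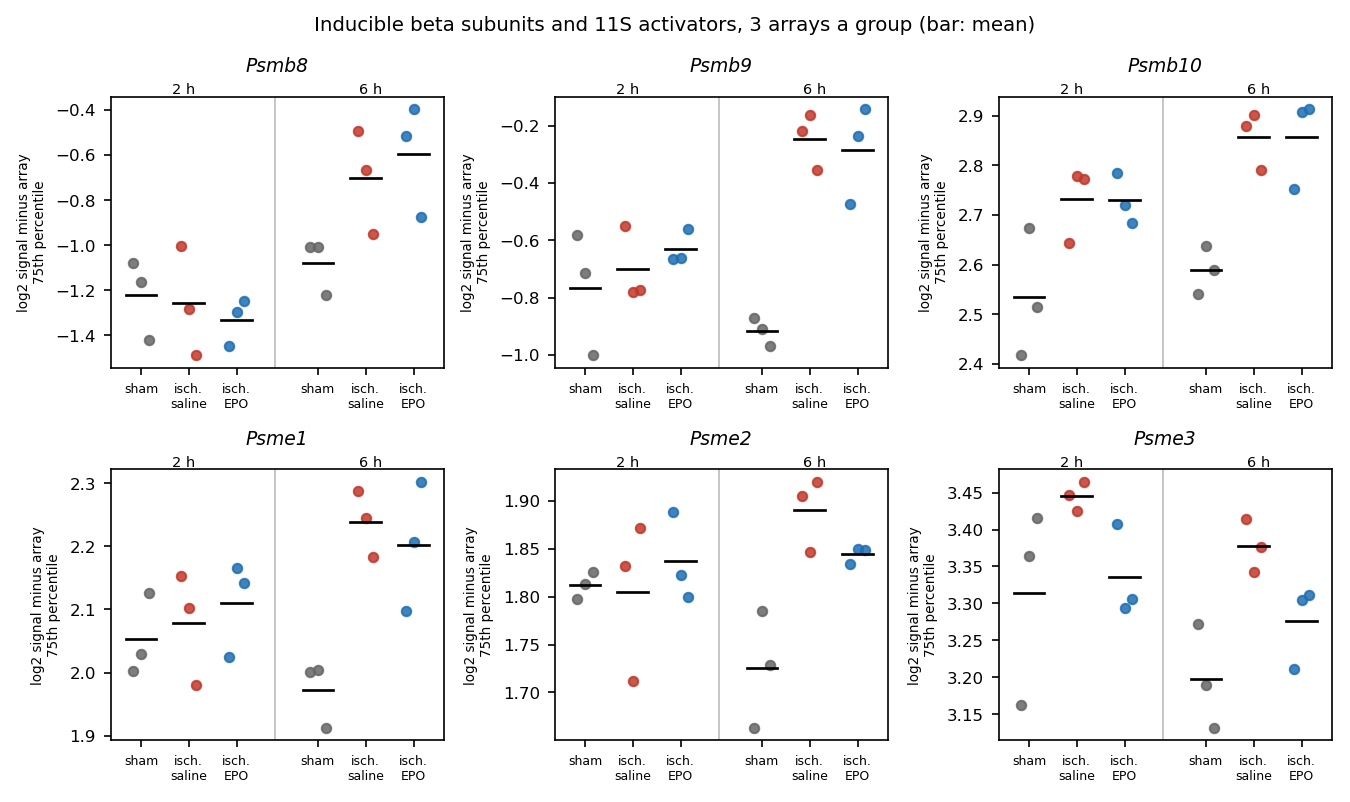
Log2 signal minus the 75th percentile of the array for the inducible beta subunits Psmb8, Psmb9 and Psmb10 and the activator genes Psme1, Psme2 and Psme3, by group (isch., ischemia); points are the 3 arrays of a group and bars their means, and each panel has its own axis. At 6 h both ischemic groups lie above sham for Psmb8, Psmb9, Psmb10, Psme1 and Psme2, and at 2 h each of the 5 overlaps sham in both ischemic groups, except that Psmb10 in the EPO group lies above all 3 sham arrays.

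The constitutive subunits that the inducible ones replace did not pass the test at 6 h. Psmb5, the chymotrypsin-like site, changed by 0.01 ± 0.07, Psmb6, the caspase-like site, by 0.11 ± 0.08, and Psmb7, the trypsin-like site, by 0.03 ± 0.05. Psmb5 was at 4.41, 4.44 and 4.39 in sham and 4.52, 4.42 and 4.34 in ischemia with saline, and the groups overlapped. Psmb7 was at 3.28, 3.21 and 3.20 in sham and 3.28, 3.24 and 3.27 in ischemia, again overlapping. Psmb6, at 3.03, 2.92 and 2.99 in sham, was higher on all 3 ischemic arrays, at 3.17, 3.06 and 3.05, and missed the test (limma, adjusted p = 0.43). At 2 h Psmb6 was also apart, at 2.95, 2.93 and 3.05 in sham and 3.23, 3.11 and 3.17 with saline. Psmb5, at 4.17, 4.36 and 4.44 in sham and 4.56, 4.40 and 4.48 with saline, overlapped. So did Psmb7, at 3.14, 3.25 and 3.16 against 3.33, 3.17 and 3.31. The 2 h EPO arrays were all above sham in each gene, at 4.57, 4.63 and 4.56 for Psmb5. None passed at 2 h.

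The transcripts of each pair were compared within each array by the log2 ratio of the inducible to the constitutive probe. This removes a shift common to all probes of an array. It does not remove a difference in slope between arrays, and the spike-in slopes ran from 0.79 to 0.94. The part of the slope in these ratios was not tested. Only the change of this ratio between groups is given. It is a ratio of RNA signals, and the subunits built into the protein complex were not measured. Against sham at 6 h the ratio of Psmb9 to Psmb6 was higher by 0.56 in ischemia with saline and by 0.62 in EPO-treated ischemia. The ratio of Psmb8 to Psmb5 was higher by 0.36 and 0.53, and that of Psmb10 to Psmb7 by 0.24 and 0.27. In all 6 of these comparisons the 3 ischemic arrays lay above the 3 sham arrays, and each had a two-sided exact permutation p of 0.1, the smallest that 3 arrays against 3 allow, so none could pass 0.05 (adjusted p = 0.2 over 12 tests). At 2 h all 6 comparisons overlapped, with changes from -0.38 for Psmb8 over Psmb5 under EPO to 0.11 for Psmb10 over Psmb7 with saline.

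**Figure D3:**
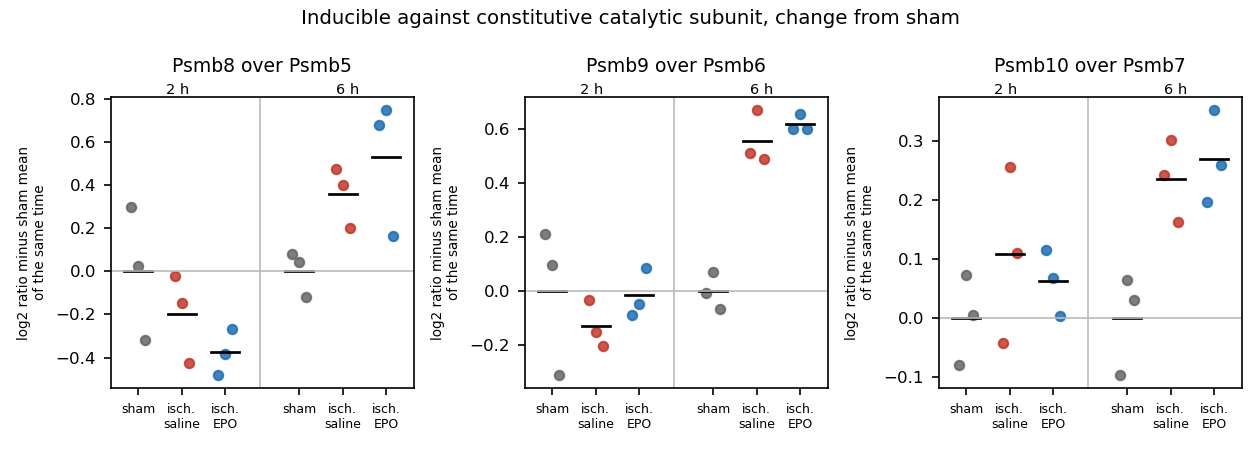
Log2 ratio of each inducible catalytic subunit to the constitutive one it replaces, per array, minus the mean ratio of the 3 sham arrays of the same time (isch., ischemia). Points are arrays and bars group means; at 6 h all ischemic arrays are above all sham arrays in each of the 3 pairs, and at 2 h they overlap.

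Genes known to work with the immunoproteasome in antigen processing were counted from a list of 10, of which 9 were on the array and 7 could be tested. At 6 h with saline 3 of the 7 rose and none fell, with a median change of 0.33 against -0.06 over all genes. In EPO-treated ischemia 5 of 7 rose. Of all genes 9.03% rose with EPO and 7.10% with saline. Tap1, one chain of the peptide transporter into the endoplasmic reticulum, changed by 1.29 ± 0.24 (limma, adjusted p = 0.00425), Irf1, the interferon-responsive activator, by 1.03 ± 0.14, and Cd74, the invariant chain of MHC class II, by 0.56 ± 0.12. No gene of the list passed at 2 h. The interferon gene Ifng was not well above background on any of the 18 arrays.

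Psmb9 and Tap1 lie head to head on rat chromosome 20: in the RefSeq annotation of GRCr8 their starts are 457 bases apart, on opposite strands. Promoter windows were available from RefSeq for 39 of the 42 members. The 250 bases before each start were searched on both strands for GAAA, any 2 bases, GAAA (the interferon-stimulated response element, ISRE), TTCNNNGAA (the interferon-gamma-activated site, GAS), TGACNNNGC (the antioxidant response element, ARE) and CCAAT (the CCAAT box). No pair of these patterns was merged where they overlapped. The ISRE letters were in the windows of 5 members (Psma4, Psmb3, Psmb10, Psmd7 and Psme2) and in 3.29% of 27457 rat promoters, and the GAS letters in 4 members and 7.52% of promoters. The ARE letters were in 7 members and 10.2% of promoters, and CCAAT in 20 members and 34.3%. Such a match describes the letters only.

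The windows shown are those of the inducible subunits and Psme2, because these genes or their ratios stood apart at 6 h, with Tap1 as the gene facing Psmb9. Each is given 5′ to 3′ on the gene's own strand and ends at the base before the start. Capitals mark the ISRE letters in Psmb10, Psme2 and Tap1 and the GAS letters in Psmb8, and Psmb9 held none of the 4 patterns.
Psmb9: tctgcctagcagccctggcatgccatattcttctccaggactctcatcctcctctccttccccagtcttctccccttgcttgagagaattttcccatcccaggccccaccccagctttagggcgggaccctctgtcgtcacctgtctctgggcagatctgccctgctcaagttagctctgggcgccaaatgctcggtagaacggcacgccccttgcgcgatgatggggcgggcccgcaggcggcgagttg
Tap1: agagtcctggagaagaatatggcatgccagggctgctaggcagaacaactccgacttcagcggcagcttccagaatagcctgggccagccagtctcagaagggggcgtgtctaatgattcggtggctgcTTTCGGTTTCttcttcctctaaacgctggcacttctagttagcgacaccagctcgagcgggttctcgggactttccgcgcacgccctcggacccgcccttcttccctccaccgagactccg
Psmb8: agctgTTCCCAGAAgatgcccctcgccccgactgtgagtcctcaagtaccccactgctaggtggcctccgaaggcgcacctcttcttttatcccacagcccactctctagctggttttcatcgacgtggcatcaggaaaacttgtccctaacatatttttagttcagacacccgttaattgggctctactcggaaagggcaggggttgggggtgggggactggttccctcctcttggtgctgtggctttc
Psmb10: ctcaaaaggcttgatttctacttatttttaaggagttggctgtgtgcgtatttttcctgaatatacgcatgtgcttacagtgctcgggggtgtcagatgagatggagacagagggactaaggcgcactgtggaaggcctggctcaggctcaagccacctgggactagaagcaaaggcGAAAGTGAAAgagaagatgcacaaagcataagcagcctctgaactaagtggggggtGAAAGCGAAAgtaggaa
Psme2: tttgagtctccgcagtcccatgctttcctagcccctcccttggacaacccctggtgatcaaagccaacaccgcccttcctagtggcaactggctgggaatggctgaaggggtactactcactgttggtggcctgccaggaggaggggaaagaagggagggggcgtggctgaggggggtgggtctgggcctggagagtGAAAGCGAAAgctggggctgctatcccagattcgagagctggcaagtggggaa
These are chr20:4668750-4668999 on the + strand for Psmb9, chr20:4668544-4668793 on the - strand for Tap1, chr20:4657032-4657281 on the - strand for Psmb8, chr19:50743293-50743542 on the - strand for Psmb10 and chr15:33052752-33053001 on the - strand for Psme2 (GRCr8). Psmb10, which rose, held 2 ISRE matches, the nearer of them 7 bases before the start. In Psme2 the match lay 43 bases before the start. In Tap1 it lay 111 bases before the start, inside the stretch between Tap1 and Psmb9, and in Psmb8 the GAS match lay 236 bases before the start. Psme1, which rose, held none of the 4 patterns.

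The 3 chaperones that help to assemble the base of the 19S cap differed in their changes. Psmd5 (A_44_P221742), also known as S5b, was at 1.87, 1.89 and 1.82 in sham at 6 h and at 2.46, 2.30 and 2.33 in ischemia with saline, all ischemic arrays well above all sham arrays. It rose by 0.51 ± 0.08, or 1.42-fold (limma, adjusted p = 0.0020). At 2 h its values were 1.65, 1.76 and 1.94 in sham and 1.79, 1.56 and 1.79 in ischemia, with full overlap and a change of -0.07 ± 0.08. The difference between those changes, tested as an interaction of ischemia and time, was 0.57 ± 0.12 (limma, adjusted p = 0.031); Psmd5 was the 1 member of 40 past that test, where 1.19% of all genes were past it upward and 0.697% downward. With the slide as a fixed block the interaction was 0.61 with an adjusted p of 0.074. The next smallest p was that of Psmb9, at 0.61 ± 0.16 (limma, adjusted p = 0.081).

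Psmd9 (A_42_P507857), or p27, rose by 0.46 ± 0.08, or 1.37-fold (limma, adjusted p = 0.0036). Its sham values at 6 h were 1.69, 1.70 and 1.50 and its ischemic ones 2.08, 2.04 and 2.14. At 2 h it was at 1.72, 1.72 and 1.71 in sham and at 2.03, 1.84 and 1.79 in ischemia, where the groups were also apart but the change of 0.16 ± 0.08 did not pass (limma, adjusted p = 0.505). The third chaperone, Psmd10 (gankyrin), was at 1.58, 1.53 and 1.56 in sham at 6 h and 1.59, 1.56 and 1.45 in ischemia, overlapping, with a change of -0.03 ± 0.07. Within slides 3 and 5 the 6 h differences were 0.41 and 0.47 for Psmd5 and 0.35 and 0.45 for Psmd9.

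The upstream window of Psmd9 held 2 matches to the ARE letters, 68 and 115 bases before the start, and that of Psmd5 held none of the 4 patterns. Psmb5, the chymotrypsin-like core subunit, whose level did not pass the test, held 1 match at 51 bases. Both are printed to set a gene that rose beside a core subunit that did not pass, with the ARE letters in capitals (Psmd9 at chr12:39018265-39018514, - strand; Psmb5 at chr15:32047380-32047629, - strand).
Psmd9: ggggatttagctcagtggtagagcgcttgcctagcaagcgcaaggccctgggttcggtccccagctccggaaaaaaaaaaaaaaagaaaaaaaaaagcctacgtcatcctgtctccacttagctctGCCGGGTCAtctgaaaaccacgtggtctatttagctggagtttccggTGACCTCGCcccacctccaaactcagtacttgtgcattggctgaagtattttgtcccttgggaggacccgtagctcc
Psmb5: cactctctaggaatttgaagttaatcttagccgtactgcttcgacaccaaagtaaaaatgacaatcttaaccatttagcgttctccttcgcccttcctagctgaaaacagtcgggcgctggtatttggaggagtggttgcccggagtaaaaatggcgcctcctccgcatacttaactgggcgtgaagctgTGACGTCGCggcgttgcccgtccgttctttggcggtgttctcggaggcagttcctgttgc

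**Figure D4:**
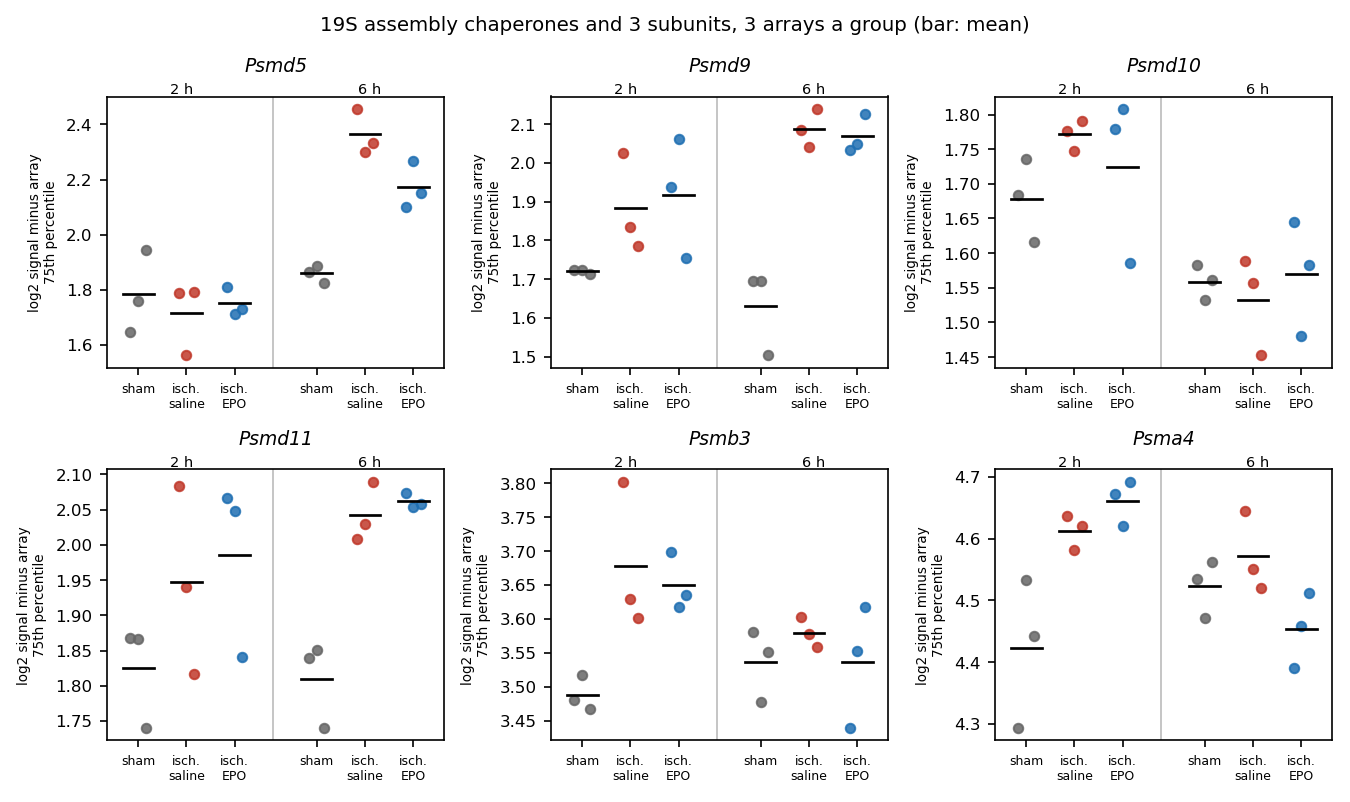
Log2 signal minus the 75th percentile of the array for the 19S assembly chaperones Psmd5, Psmd9 and Psmd10 and for Psmd11, Psmb3 and Psma4, by group (isch., ischemia); points are arrays, bars are means of 3, and each panel has its own axis. Psmd5 and Psmd9 are higher in both ischemic groups than in sham at 6 h, and Psmd10 is not.

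The structural subunits differed little from sham. At 6 h the 28 tested core and cap subunits ranged from -0.13 to 0.23 with a median of 0.05, and 23 of them were above 0. The median over all genes was -0.06, so the medians lay 0.11 apart, and 0.03 apart after quantile normalization. After quantile normalization 14 of 28 were above 0 with a median of 0.01, and without saline replicate 1 of 6 h, which had the highest median deviation of the 18 arrays (0.10), 19 of 28 with a median of 0.02. With normexp background correction 18 were above 0, without scaling between arrays 23, and with the slide as a fixed block 25. By role the medians were 0.07 for the alpha ring, 0.04 for the constitutive beta ring, 0.04 for the ATPases and 0.05 for the other cap subunits. The highest was Psmd11, a scaffold subunit of the lid, at 1.84, 1.85 and 1.74 in sham and 2.01, 2.03 and 2.09 in ischemia, groups apart, with a change of 0.23 ± 0.08 (limma, adjusted p = 0.071). The lowest was Psmd3, another lid subunit, at -0.13 ± 0.11, and among the members below 0 the next smallest p was that of Psmc3ip, a recombination factor, at -0.11 ± 0.11. At 2 h the members below 0 of smallest p were Psmc3ip, at -0.11 ± 0.11, and Psmd5, given above.

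At 2 h the same 28 subunits were all above 0, from 0.00 for Psmc1 to 0.29 for Psma2, with a median of 0.12 against -0.02 over all genes, of which 5553 of 12330 were above 0. None passed the test, and 8 of the 28 (28.6%) were under an unadjusted p of 0.05, against 12.8% of all genes. The alpha ring had the highest median, 0.16, then the constitutive beta ring with 0.14, the other cap subunits with 0.07 and the ATPases with 0.04. The members above 0 with the smallest p were Psmb3, a structural beta subunit, at 0.19 ± 0.06 (limma, adjusted p = 0.21), and Psma4, an alpha subunit, at 0.19 ± 0.06 (limma, adjusted p = 0.21). Psmb3 was at 3.48, 3.52 and 3.47 in sham and 3.80, 3.63 and 3.60 in ischemia with saline; Psma4 was at 4.29, 4.53 and 4.44 against 4.64, 4.58 and 4.62. In both genes all ischemic arrays were above the sham arrays.

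The place of 0 at 2 h is set by the scaling. Leaving out the scaling between arrays shifts every gene alike: the median of all genes went from -0.02 to -0.12 and that of the 28 subunits from 0.12 to 0.02, with 16 of 28 above 0, and the gap between the medians was 0.15 with and without scaling. After quantile normalization, which does not shift all genes alike, the gap was 0.04, and 22 of 28 were above 0 with a median of 0.05. As the median deviation of the 28 from their own means, the sham arrays at 2 h stood at -0.15, -0.07 and -0.05, the saline arrays at 0.07, -0.03 and 0.06 and the EPO arrays at 0.09, 0.07 and 0.09. Replicate 1 of sham was the lowest of all 18 arrays, and without it 21 of 28 were above 0 with a median of 0.07. The 6 arrays of steep spike-in slope ranged from -0.01 to 0.10 and the other 12 from -0.15 to 0.09; without those 6 the count was 25 of 28, the median 0.10 and the gap to all genes 0.10. With the spike-in slope as a covariate 23 of 28 were above 0 with a median of 0.09, and the gap to all genes was 0.05. With normexp background correction 27 of 28 were above 0 with a median of 0.14, and the gap was 0.19. Leaving out any 1 of the 18 arrays gave 21 to 28 above 0.

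**Figure D5:**
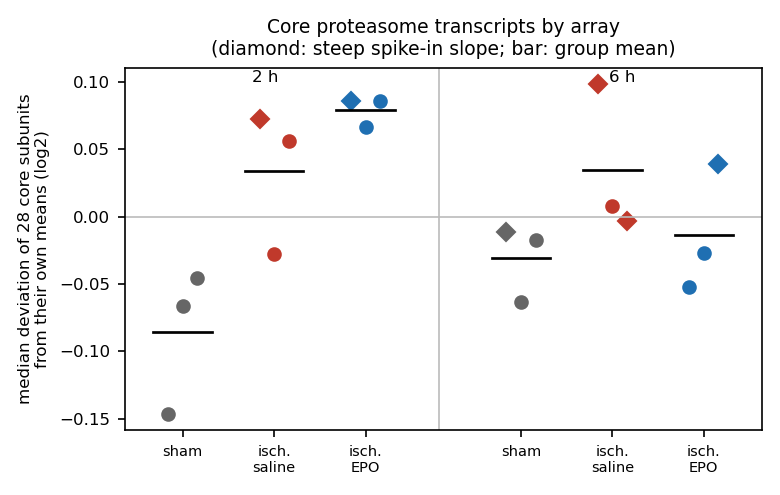
Median over 28 core and cap subunits of the deviation from each gene's mean over the 18 arrays (log2), 1 point per array, by group (isch., ischemia), with diamonds for the 6 arrays of steep spike-in slope and bars for group means. The 3 sham arrays at 2 h lie below all other 2 h arrays, and the lowest is sham replicate 1 at -0.15.

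EPO against saline within ischemia gave no called member at 2 h or 6 h with limma, where 0 genes of 12330 passed in either direction. At an unadjusted p under 0.05 there were 0 of 40 members at 2 h, against 1.2% of all genes. At 6 h there were 1 of 40 members (2.5%), against 4.2% of all genes. That 1 was Psmd5, at 2.46, 2.30 and 2.33 with saline and 2.10, 2.27 and 2.15 with EPO, all EPO arrays below the saline arrays, with a change of -0.19 ± 0.08 (limma, adjusted p = 0.78). The next was Psme3ip1, a partner of the Psme3 ring, at -0.12 ± 0.06. At 2 h the smallest p belonged to the ATPase gene Psmc1, at 0.09 ± 0.05, and to Psme3, at -0.11 ± 0.07 (both adjusted p = 1.0). For the inducible subunits the 95% intervals at 6 h were -0.27 to 0.20 for Psmb9, -0.23 to 0.45 for Psmb8 and -0.16 to 0.16 for Psmb10, so that changes within these bounds were not resolved. The interaction of EPO and time also gave 0 called members and 0 called genes; Psmd12, a lid subunit, had the smallest p, at -0.20 ± 0.10, and then Psme3ip1, at -0.16 ± 0.08.

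EPO-treated ischemia was also set against sham, with the same sham arrays as the saline comparison, so the values stand side by side and are not independent. At 6 h, 6 of 40 members rose and none fell, where 9.03% of all genes rose and 8.44% fell. They were Psmb9 at 0.63 ± 0.11 (limma, adjusted p = 0.0017), Psmd9 at 0.44 ± 0.08, Psmd5 at 0.32 ± 0.08, Psmb10 at 0.27 ± 0.07, Psmd11 at 0.25 ± 0.08 and Psme1 at 0.23 ± 0.07 (limma, adjusted p = 0.037). The EPO arrays read -0.47, -0.24 and -0.14 for Psmb9, 2.75, 2.91 and 2.91 for Psmb10, and 2.10, 2.21 and 2.30 for Psme1. All of these were above the highest sham array. Psmd9 read 2.03, 2.05 and 2.13 and Psmd11 2.07, 2.05 and 2.06, likewise above sham. Psmb8, at -0.52, -0.40 and -0.87, had a change of 0.48 ± 0.16 that missed the test (limma, adjusted p = 0.055), with 0.40 and an adjusted p of 0.036 when the slide was a fixed block, where Psme1 kept 0.23 with an adjusted p of 0.10. The members below 0 of smallest p were Psme3ip1 at -0.10 ± 0.06 and the lid subunit Psmd7 at -0.13 ± 0.07. The 28 core and cap subunits had a median of 0.01 with 15 above 0 (-0.02 with 9 above 0 without scaling between arrays, -0.00 with 14 after quantile normalization, and -0.02 with 10 without the 6 arrays of steep slope), and Psmd11 was the 1 past the test.

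At 2 h EPO-treated ischemia gave 0 called members with limma, where 1.68% of all genes rose and 0.243% fell. Under an unadjusted p of 0.05 were 14 of 40 members (35%) and 14.2% of all genes. The smallest p were those of Psmb2 at 0.20 ± 0.05 (limma, adjusted p = 0.085) and Psma4 at 0.24 ± 0.06 (limma, adjusted p = 0.096). All 28 core and cap subunits were above 0, with a median of 0.15 against -0.02 over all genes, a gap of 0.17. Without scaling between arrays both medians were lower by the same amount, at 0.02 and -0.15. The gap was 0.07 after quantile normalization, 0.08 with the slope as a covariate and 0.22 with normexp background correction. Between the sham groups, 6 h against 2 h, 0 members passed with limma, where 0.438% of all genes rose and 0.211% fell. At an unadjusted p under 0.05 were 1 of 40 members and 10.4% of all genes. Psmc4 had the smallest p, at 0.20 ± 0.07, and then Psma1, at 0.15 ± 0.07. The second probe of Psmc4 read 0.04 ± 0.07.

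Genes that act around the proteasome were taken from lists drawn up for this purpose. The counts below stand beside 7.10% of all genes that rose and 4.51% that fell at 6 h with saline. Of 13 tested factors that bind the proteasome or carry substrates to it, 3 rose at 6 h with saline and none fell, with a median of -0.01. These were Zfand2a, the stress-induced zinc finger protein AIRAP, at 0.91 ± 0.12 (limma, adjusted p = 0.000304), Midn, which brings proteins to the proteasome without ubiquitin, at 0.61 ± 0.10, and Ddi2, the protease that activates Nfe2l1, at 0.42 ± 0.08. Zfand2a and Midn had also risen at 2 h, by 0.57 ± 0.12 and 0.51 ± 0.10. The gene of the segregase p97 itself, Vcp, was not tested. Of 8 tested genes for its cofactors, 1 rose at 6 h, Ubxn4 at 0.24 ± 0.07. Of 6 genes for ubiquitin and its activating enzymes 0 passed with limma, from -0.43 to 0.15. At an unadjusted p under 0.05 there was 1 of these 6, against 25.7% of all genes.

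Of 5 transcription factors known to act on proteasome genes, 3 rose at 6 h, against 7.10% of all genes with saline. They were Stat3 by 0.68 ± 0.10, Nfya by 0.57 ± 0.15 and Nfe2l2, or NRF2, by 0.49 ± 0.07 (limma, adjusted p = 0.000514 for the last). The others, Nfe2l1 and Foxo3, did not pass. None of the 5 passed at 2 h. The 2 proteasome genes without the prefix that were on the array, the ubiquitin receptor Adrm1 and the assembly factor Pomp, did not pass at either time: at 6 h Pomp changed by 0.08 ± 0.05 and Adrm1 by 0.13 ± 0.16.

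In tissue, fewer cells of a type and less RNA per cell cannot be told apart. Over all genes, 7.10% rose and 4.51% fell at 6 h with saline. Among 5 tested neutrophil markers 2 rose at 6 h, S100a8 by 1.97 ± 0.39 and Il1r2 by 1.80 ± 0.25, and the summed linear level of the 6 markers on the array, in units of the 75th percentile of each array, was 1.22 to 1.35 with saline against 0.45 to 0.67 in sham. Of 7 markers of microglia and macrophages 2 rose and 2 fell, with Aif1 at 0.30 ± 0.08 and P2ry12 at -0.95 ± 0.21, and their sum was 11.4 to 13.0 against 12.3 to 13.6. Of 4 tested T and NK cell markers none passed, and Cd8a and Ifng were well above background on 0 of 18 arrays. The 6 neuron markers summed to 99.5 to 101 with saline and to 113 to 119 in sham, and 1 of them fell, Neurod6. Of 5 endothelial markers 2 fell, Tek by 0.98 ± 0.19 and Cldn5 by 0.48 ± 0.14, and their sum was 6.60 to 7.73 with saline against 8.73 to 10.1 in sham. Of 4 oligodendrocyte markers 1 rose, Mog, by 0.43 ± 0.13, and their sum was 252 to 270 against 223 to 244. At 2 h, where no oligodendrocyte marker passed, that sum was also apart, 266 to 279 against 237 to 246. None of 5 astrocyte markers passed, and their sums overlapped at both times. The part of these cell types in the rise of Psmb9, Psmb10 and Psme1 was not tested.

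The 8 genes with more than 1 probe had 9 further probes, and no further probe passed in either ischemia comparison. Psmd2 could be read on its second probe (A_44_P234636), at -0.08 ± 0.07 at 2 h and -0.00 ± 0.07 at 6 h. With outlier-marked spots kept, Psmb4 changed by 0.15 ± 0.09 at both times and did not pass. A set of 5 further genes had probes only under older names, and were kept apart from the 42. Psmg1 (then Dscr2), Psmg2 (then Tnfsf5ip1) and Psmg3 are chaperones of 20S assembly. Psmg1 changed by -0.00 ± 0.08 and Psmg3 by -0.24 ± 0.19 at 6 h with saline. Psmg2 changed by -0.18 ± 0.08 with saline (limma, adjusted p = 0.18) and fell by 0.35 ± 0.08 in EPO-treated ischemia (limma, adjusted p = 0.0092). The testis subunit Psma8 and the thymus subunit Psmb11 were well above background on 0 and 1 of 18 arrays.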

How the data were processed

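Total RNA (1 µg per sample) was labelled with Cy3, and each array was scanned as 1 colour. The deposited scanner files hold the processed signal, an intensity that the authors background-corrected with Agilent Feature Extraction 9.1.1.1, per the submitters' processing notes. The deposited value table equals the log2 of that processed signal and was read only for comparison.

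From the intensity, log2 was taken and each array's 75th percentile subtracted; control spots and outlier-marked spots were left out, and spots of a probe averaged. A probe entered the test with a value on all 18 arrays, provided that in 1 or more groups all 3 arrays read it well above background. limma 3.58.1 (R 4.3.3) fitted 6 group means (12 residual degrees of freedom) with eBayes and Benjamini-Hochberg adjustment over 28625 probes, and was tested on simulated data. Slide was tried as a block (correlation 0.207). Precision is limited by the 3 arrays a group. For the ratios of inducible to constitutive probes an exact permutation test was used.

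Probes were named through the accession, symbol or synonym in RefSeq (GRCr8), or by the file's name; rat proteasome pseudogenes can share sequence with a probe. Members, lists and tests were chosen with earlier results of these data known. Genes named singly are those past a test (up to 8 a direction against sham, up to 5 otherwise), else the 2 of smallest p, and always the inducible subunits, their constitutive counterparts and Psme1 to Psme4. Array values are printed for part of these genes and comparisons, and not for Psme4. Other members are given by range, except Psma2, Psmc1 as the end of a range, Psmd6 and Psmd11 in the saline comparison, Neurod6 and the genes of older names, which were picked after their values were seen.

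The labels number replicates 1 to 3 in every group. Deviations from the group means of same-numbered arrays correlated at 0.89, 0.65 and 0.64 between the EPO and saline groups at 2 h. This met the rule that every pair exceeds 0.1, and in no other comparison did all 3 exceed it. The labels do not state a pairing. In both groups replicate 1 had a steep spike-in slope and replicate 3 lay on slide 4. Paired samples and shared array effects therefore cannot be told apart. Alternatives to each choice were run (33 for each result); 1, keeping outlier-marked spots, was added after the data were seen.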

Additional observations from a re-analysis of the deposited data

Results flagged for a closer look

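Psmd5 stood out because its ischemic change differed between the times by a test of the difference itself. The interaction of ischemia and time was 0.57 ± 0.12 (limma, adjusted p = 0.031), from a change of -0.07 at 2 h and 0.51 at 6 h, and all 3 ischemic arrays were above all 3 sham arrays at 6 h. The call held in 17 of 33 alternatives, with the value between 0.49 and 0.68 throughout and the adjusted p between 0.0090 and 0.64. The alternatives include leaving out single EPO arrays, which do not enter the value of this interaction, and the call held in each of those. It was lost when any 1 sham or saline array of 6 h was left out. Without sham replicate 3 of 2 h, Psmb9 was the called member in place of Psmd5.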

How the results depend on the processing

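Over 33 alternatives the counts of called members stayed at 0 for ischemia against sham at 2 h, EPO against saline at 2 h and 6 h, the sham groups, and EPO by time. The 5 members called at 6 h with saline became 8 with the slide as a random block or with trend and robust eBayes, and 3 without scaling between arrays, without the filter on dim probes, at an adjusted p of 0.01, or with only the arrays of the groups compared. Without the 6 arrays of steep slope, which left 1 saline array against 2 sham arrays at 6 h, the count was 0; the changes were then 0.78 for Psmb9, 0.45 for Psmd5 and 0.44 for Psmd9. Leaving out single replicates gave 3 to 6, and 3 without any 1 of the 6 h sham replicates or without 6 h saline replicate 1 or 2. Psmb9, Psmd5 and Psmd9 were called in 32 of 33 alternatives, and Psmb10 and Psme1 in 21. The 33 include leaving out arrays of groups outside the comparison, which does not move the change itself. Psmb10 was not called when any 1 sham or saline array of 6 h was left out. Among those fits Psme1 was called only without saline replicate 3.

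The 6 members called in EPO-treated ischemia at 6 h became 2 without scaling between arrays or at an adjusted p of 0.01, and 3 without the dim filter. With only the arrays compared the count was 1, Psmb9. Without the steep arrays it was also 1, but that was Psmb8, which was not among the 6. The changes were then 0.58 for Psmb9 and 0.44 for Psmd9. Single replicates gave 2 to 7, with 2 without sham replicate 1, sham replicate 3 or EPO replicate 2 of 6 h. At 2 h trend and robust eBayes gave 2. The 1 called interaction of ischemia and time became 2 with normexp or a random slide block and 0 without scaling, without the dim filter, with a fixed slide block, with the replicate block, without the steep arrays, at 0.01 or with only the arrays compared; single replicates gave 0 to 1, with 0 without sham or saline replicate 2 at 2 h or without any 1 of the 6 sham and saline arrays of 6 h. Where fewer arrays entered a fit, its size is part of the change; for the other settings the cause was not tested.

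With the replicate number as a block, the 6 h counts stayed at 5 with saline and 6 with EPO, where Psmb8 passed and Psme1 did not. The count for EPO against saline at 2 h stayed at 0. Of 36 single-gene changes none past the test reversed; 42 of 1188 values, none past it, changed sign.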
